A study of Mus musculus with 4 samples.

Results

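The transcriptome described here is that of bronchial epithelial cells from mice labelled wild type (Pla2g3+/+) in the control group, read on 1 single-colour Agilent array. It is 1 of 4 arrays in the series. Every gene name on the array was given the level of its brightest probe, and gene names whose probe the scanner software called well above background were ranked by that level. This left 23500 of 28630 gene names, or 82.1%. A level is the log2 of the processed signal minus the log2 of the array's 75th percentile, which was 1986 intensity units, so a level of 0 is the 75th percentile of the spots.

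The 4 groups were labelled Pla2g3+/+ (wild type) and Pla2g3-/-, each with and without challenge, each read once from RNA pooled from 4 samples. Challenged mice received 10 µg of ovalbumin with 1.3 mg of alum in 0.2 ml by injection on days 0 and 14 and inhaled a 1% ovalbumin aerosol for 30 min on days 26, 27 and 28, and their lungs were taken 3 h later. The labels do not say how control mice were treated, or whether each of the 4 pooled samples was a single mouse. The cells were isolated from lung tissue and not sorted for a marker that the labels name. With 1 array there is no replicate, so no value below has a p-value, and n = 1 for every level.

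The surface of the mouse bronchial airway is built from club cells, which secrete small lipid-binding and defence proteins and detoxify inhaled compounds, ciliated cells, which move the mucus, and basal cells, which lie on the basement membrane and act as progenitors. Goblet cells, which make gel-forming mucins, are few in an airway at rest, and the alveoli beyond the airways hold surfactant-producing type 2 and flat type 1 cells. Lung tissue also holds endothelium, fibroblasts, muscle, leukocytes and blood, and a preparation of epithelial cells can carry RNA of each. In a bulk RNA sample, fewer cells of a type and less RNA per cell cannot be told apart.

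The genotype label was examined first. Pla2g3, the gene of group III secreted phospholipase A2, has 2 probes. The brighter one read 239 intensity units on the control array labelled Pla2g3+/+ and 254 on the challenged array labelled Pla2g3+/+, against 2023 on the control array labelled Pla2g3-/- and 4154 on the challenged array labelled Pla2g3-/-. The other read 44.1 and 13.1 on the arrays labelled Pla2g3+/+ and 177 and 336 on those labelled Pla2g3-/-. Both probes were thus lower on the arrays labelled wild type, an order opposite to that of the genotype labels. Neither an exchange of labels nor any other cause of this order was tested. All 4 arrays, the one described here included, are therefore named by their labels. On the control array labelled Pla2g3+/+ Pla2g3 had a level of -3.05 and ranked 14261 of the 23500 genes, in the lower-middle of the range.

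Of the 6 marker genes, the 3 of airway epithelium were the brightest. Scgb1a1, the secretoglobin that club cells release in bulk, was the brightest of all genes, at 458278 intensity units and a level of 7.84. Its probe lies at chr19:9158197-9158256 of the mouse build mm9. Krt5, a keratin of basal cells, had a level of 5.65 and rank 343 (probe at chr15:101537514-101537573). Foxj1, the transcription factor that ciliated cells need to build motile cilia, had a level of 3.50 and rank 1604 (chr11:116192214-116192273).

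The markers of the other compartments were far dimmer. Cd79a, a chain of the B cell receptor complex, had a level of -0.80 and rank 9562 by its brighter probe. The deposited coordinates place that probe on another chromosome than the gene, and the other probe stood at -4.48. Sftpc, the surfactant protein that marks alveolar type 2 cells, had a level of -1.33 and rank 10705. Pecam1, an adhesion molecule of endothelium, had a level of -2.92 and rank 13986 (chr11:106540864-106540923). The median gene of the array had a level of -1.84. Sftpc, and Cd79a by its brighter probe, thus lay a little above the middle of the ranking and Pecam1 below it. By these markers the array carries the airway epithelium of its label. Single genes of blood and stromal lists were bright beside it, with Hba-a2, an alpha globin, at 7.49, Msln, mesothelin, at 6.45 and Dcn, decorin, at 4.59. The medians of their lists were far lower, at -0.97 (erythroid and platelet), -2.10 (mesothelial) and -1.12 (fibroblast and matrix).

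The same 6 genes on the other arrays kept the 3 airway markers above the other 3. Scgb1a1 stood at 7.89 on the control array labelled Pla2g3-/-, 7.88 on the challenged array labelled Pla2g3+/+ and 7.67 on the challenged array labelled Pla2g3-/-, and was the brightest gene on all 4. Krt5 stood at 5.53, 5.68 and 5.43 on those 3 arrays, and Foxj1 at 3.12, 3.55 and 3.47. Sftpc was lowest on the control array labelled Pla2g3+/+, at -1.33 against -0.71, -0.66 and -0.26. Cd79a was highest there by its brighter probe, at -0.80 against -2.31, -2.19 and -2.17. Pecam1 ranged from -3.38 to -2.92.

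**Figure D1:**
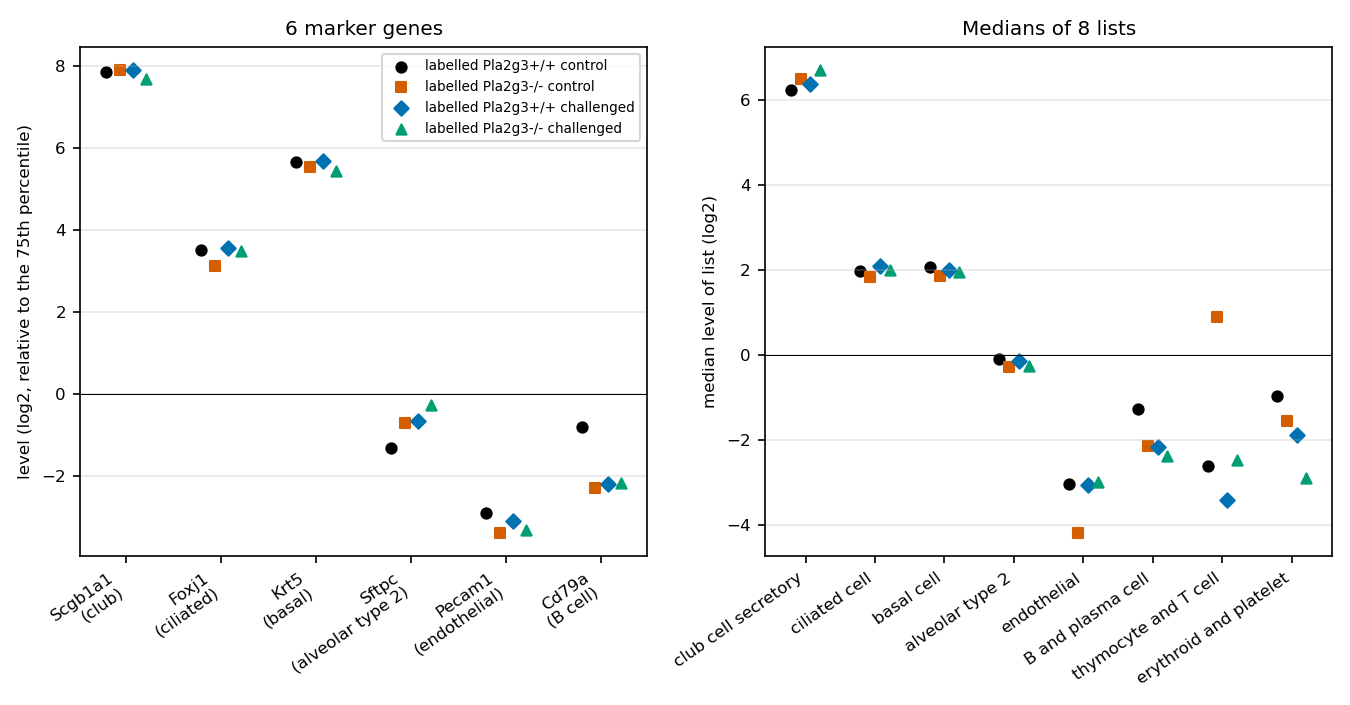
Levels on a log2 scale relative to each array's 75th percentile, for 6 marker genes (left) and as medians of 8 gene lists (right), with 1 symbol per array and no replicates. The club, ciliated and basal symbols of the 4 arrays lie close together, while the thymocyte and T cell median of the control array labelled Pla2g3-/- (0.90) stands above those of the other 3 arrays, of which the control array labelled Pla2g3+/+ is at -2.62.

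The array was comparable in quality to its neighbours. On the control array labelled Pla2g3+/+ 80.9% of 39424 probes were well above background, 135 spots were left out as outliers, and no spot was saturated. Probes printed on several spots had a median SD between spots of 0.067 on the log2 scale over 338 probes, and 95% of them had an SD of 0.356 or less. The scanner software's own error was 0.14 on the log2 scale for bright genes such as Scgb1a1. Of the 100 brightest genes, 86 were among the 100 brightest of the control array labelled Pla2g3-/-, 92 of the challenged array labelled Pla2g3+/+ and 79 of the challenged array labelled Pla2g3-/-. The median absolute difference in level from these arrays was 0.17, 0.16 and 0.23 over the genes measured on both.

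A rank is a rank of probe signal, not of transcript number. Among 5465 genes with 2 or more probes well above background, the brightest and the dimmest probe of a gene differed by a median of 2.33 on the log2 scale, and in 894 of them (16.4%) by more than 5. In 3636 genes with 2 probes on 1 chromosome and strand, the probe nearer the 3′ end was brighter in 2384 (65.6%), by a median of 0.96 over all of them. Differences in level between genes that are smaller than this spread therefore give no order. Krt5 shows the size of it, with 1 probe at 5.65 and the other at 0.52.

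The top of the ranking was led by secretory genes of the airway. Scgb3a1, a second secretoglobin, followed Scgb1a1 with 409342 intensity units and a level of 7.68 (probe at chr11:49478489-49478548), and held the second rank on all 4 arrays. The gap between them is close to the scanner error of 0.14 and far below the spread between probes, so the 2 genes have no order by transcript. Cbr2, a carbonyl reductase abundant in club cells, ranked 3 at 7.57, with its other probe at 6.90. Ltf, the iron-binding defence protein lactoferrin, stood at 7.47, Reg3g, a secreted lectin that binds bacteria, at 7.47, and Bpifa1, a surface-active defence protein of the upper airway, at 7.42. These 3 held ranks 6 to 8, within the scanner error of each other.

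Between and below them lay genes of metabolism, blood and protein synthesis. Tpt1, a translationally controlled protein found in all cells, ranked 4 at 7.49, and Hba-a2, the alpha globin of red cells named above, ranked 5 at 7.49. Aldh1a1, which makes retinoic acid and oxidises aldehydes, stood at 7.28, Cyp2f2, the cytochrome P450 that marks mouse club cells, at 7.24, and Cyp2a4, another P450, at 7.19. Bpifb1, a relative of Bpifa1, had 7.17, Gsto1, a glutathione transferase, 7.14, and Prdx6, a peroxiredoxin with phospholipase A2 activity, 7.14. The probes of Prdx6 ranged down to -2.42. Wfdc2, a secreted protein of the airway with a protease inhibitor fold, stood at 6.92, and Epas1, an oxygen-sensing transcription factor abundant in lung, at 6.97. The ribosomal RNA Rn18s (7.31) and the small RNA Rn4.5s (7.40) were also in the first 13 ranks.

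**Figure D2:**
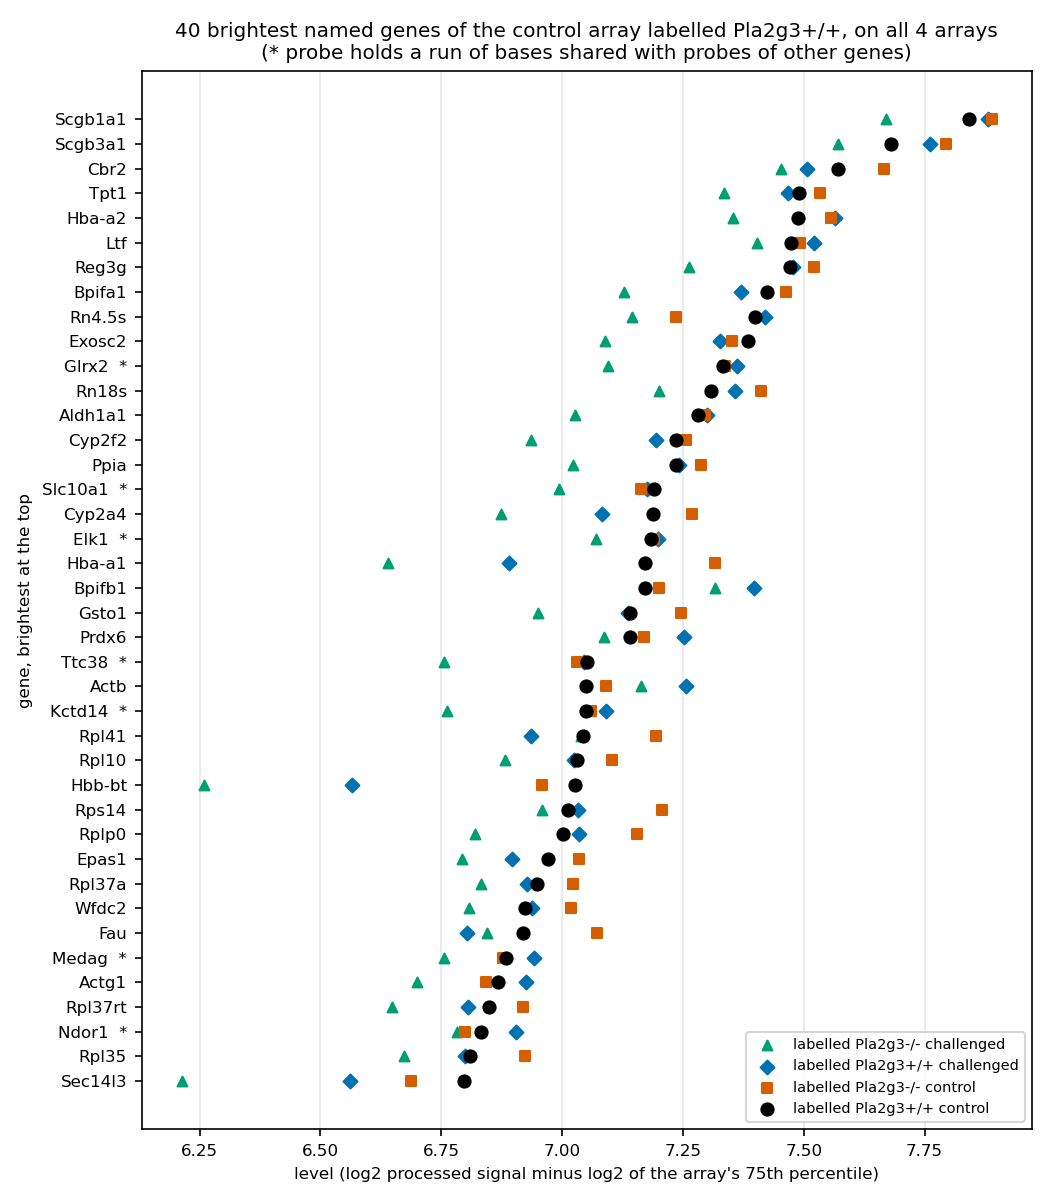
Levels of the 40 brightest genes of the control array labelled Pla2g3+/+ that have a symbol, with 1 point per array; the horizontal axis is the log2 level relative to the array's 75th percentile. Scgb1a1 and Scgb3a1 lead on every array, and the probes of the globin genes Hba-a1 and Hbb-bt spread widely between arrays, that of Hbb-bt from 6.26 to 7.03.

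Of the 100 brightest genes, 12 belonged to an epithelial list, 4 to an immune or blood list (3 globin genes and Ltf, which the neutrophil list holds), 0 to a stromal list and 27 to lists of general programmes. A gene can stand in several lists, so these counts overlap, and 66 were in no list. The 37 lists name 743 genes in all, some of them not ranked, whereas 23500 genes were ranked. The classes differ in size, and the share of each among all ranked genes was not computed. The class counts therefore cannot be compared with each other. Of the 100, 25 were ribosomal protein genes and 22 had only a clone or prediction name. The brightest 10 genes held 2.23% of the summed intensity of all genes, the brightest 100 held 14.7%, and the top 10% (2350 genes, down to a level of 2.83) held 77.2%.

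Some of the brightest probes do not name their gene safely. Of the 100 brightest genes, 21 were read by a probe that holds a run of 14 bases also found, on either strand, in probes of at least 5 gene symbols in all, against 1233 of 23500 genes (5.25%). Genes read by such a probe had a median level of -0.12, against -1.91 for the others. A stretch of 30 bases is shown for 6 of these probes, in lower case with the shared run in capitals, because the same letters recur in probes of different genes. As background, the first 4 runs belong to sequence of the type of the B1 short interspersed repeat and the last 2 to that of the B2 repeat, which occur in many copies in mouse genes.
Glrx2: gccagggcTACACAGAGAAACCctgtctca
Elk1: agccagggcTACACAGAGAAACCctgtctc
Slc10a1: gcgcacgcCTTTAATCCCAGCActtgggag
Kctd14: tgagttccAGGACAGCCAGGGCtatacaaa
Medag: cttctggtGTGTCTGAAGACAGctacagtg
Ppm1k: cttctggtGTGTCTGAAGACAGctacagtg

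These genes stood in the first 52 ranks, but their other probes were dim in most cases. Glrx2, a mitochondrial glutaredoxin, ranked 11 at 7.33 and its dimmest probe stood at -3.05. Elk1, an X-linked transcription factor, ranked 21 at 7.18 and its other probe stood at -4.64. Slc10a1, a bile acid carrier of liver, ranked 19 at 7.19 and its other probe stood at -5.20. The deposited coordinates place the Elk1 probe at chr12:100686807-100686866 and that of Slc10a1 at chr12:100686870-100686929, next to each other. Medag was the exception, with its dimmest probe at 4.82.

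Placement also differed for many multi-copy genes. For 80 of the 100 brightest genes a chromosome was given both by the array file and by RefSeq, and they differed in 26 (32.5%), against 2.25% of all genes with both. Of these 26, 8 had a shared-run probe and 14 were ribosomal protein genes, with Rps28 in both sets. The other 5 included Tpt1, Ppia and Actg1. Genes of this kind have many processed copies in the mouse genome, and the signals of a gene and of its copies cannot be told apart on an array.

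Genes of club cells formed the brightest cell type list. Of 23 genes in the list, all were on the array and well above background, and 21 (91.3%) lay among the 2350 brightest genes of the array, its top 10%, which holds 10.0% of all genes by construction. The members of this and the other lists were chosen with earlier results of these data known, so such shares describe the lists and test nothing. The median level of the club cell genes was 6.23, and the list held 2.65% of the summed intensity. Besides the genes named above, Lypd2 had a level of 6.78, and Por, the reductase that supplies electrons to cytochrome P450s, 6.29. Scgb3a2, a secretoglobin of the small airways, stood at 4.32 and rank 961, far below the other 2 secretoglobins. The lowest members were Chad (3.01), Cldn10, a tight junction claudin (1.78), and Cckar, a cholecystokinin receptor (1.33). Pigr, the receptor that carries IgA across the epithelium, stood at 6.16 by a probe with a shared run; its other probe stood at 3.57.

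Detoxifying enzymes were bright as a group. Of 31 genes of xenobiotic metabolism well above background, 22 (71.0%) lay in the top 10%, with a median level of 3.97. The glutathione transferases Gsta3 (6.14), Gstm1 (6.11) and Gstm2 (6.11) followed the genes named above, as did the epoxide hydrolase Ephx1 (5.54) and the cytochrome P450 Cyp4b1 (5.48). At the low end were Cyp2e1 (-4.43), Ugt1a6a (-3.20) and Nqo1, a quinone reductase (-2.45). Cyp1a1, the P450 that aryl hydrocarbon signalling switches on, was not well above background.

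Defence proteins fell into a bright and a dim set. Of 29 well above background, 14 were in the top 10%, and the median level was 2.70. Hp, haptoglobin, stood at 5.98, Lyz1, a lysozyme, at 5.96, C3, the central complement component, at 5.94, and Cxcl17, a mucosal chemokine, at 5.08. Lcn2, which binds bacterial siderophores, stood at 1.02, Lpo, lactoperoxidase, at -3.45, and the oxidase genes Duox1 and Duox2 at -3.16 and -7.08. The cytokine genes Tslp and Ccl20 and the defensin gene Defb2 were not well above background.

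Mucus genes were uneven. Muc5b, the gel-forming mucin of the airway at rest, had a level of 5.98 and rank 231, whereas Muc5ac, the mucin of goblet cells, had -2.27 and rank 12687 with 410 intensity units. Agr2, which folds mucins, stood at 4.97, Clca1, a secreted goblet cell protein, at 4.83, Tff2, a trefoil peptide, at 3.29, and Spdef, a transcription factor of goblet cells, at 2.58. Foxa3, another factor of goblet cells, stood at -2.26. The lowest of the list were 3 Dcpp genes, with Dcpp2 at -5.91. Of 17 genes, 7 were in the top 10% and 5 in the dimmer part of the ranking below the median gene.

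Muc5b stood at 6.20, 6.29 and 6.70 on the other 3 arrays, Clca1 at 6.26, 6.73 and 6.89, and Tff2 at 3.66, 4.28 and 4.56, in the order used above for Scgb1a1. The control array labelled Pla2g3+/+ was the lowest of the 4 for each of these 3 genes, which were chosen after their values were seen. The list's median was 2.49 there against 2.18, 2.93 and 2.76, so by the median 1 array was lower. Muc5ac stood at -2.48, -1.42 and -1.33, again with 1 array lower.

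All 42 ciliated cell genes were well above background, and 19 (45.2%) lay in the top 10%, with a median level of 1.96. Sec14l3, a lipid carrier of ciliated cells, was the highest at 6.80 and rank 48, with its other probe at 2.94. Next were the tubulin genes Tubb4b (5.83) and Tuba1a (5.62), which other cells also use, and for Tubb4b the file and RefSeq gave different chromosomes. Dynlrb2, a dynein light chain, stood at 5.52, Ccdc153 at 5.07 and Fam183b at 5.0. The dynein heavy chains that drive the ciliary beat were dimmer, with Dnah5 at 2.0, Dnah11 at -0.07 and Dnah9 at -0.39. The regulators Rfx2 (-3.16) and Rfx3 (-3.80) and the gene Lrriq1 (-3.23) were the lowest, and only these 3 of the 42 lay below the median gene.

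The RFX factors bind a palindromic element, the X-box, and ciliary genes are known for carrying it near their start. Promoters of 300 bases (250 before to 50 after the start) were taken from RefSeq on GRCm38.p6 for 37 of the 42 genes, 42 promoters in all, since a gene can have several starts. The letters GTTGCC, searched on both strands as one arm of the element, occurred in 21 of these 42 promoters (50%), against 12.5% of all 32851 promoters in the table and at most 20% in any other list. They occurred in 0 of 17 promoters of 14 club cell genes and in 0 of 14 promoters of 12 basal cell genes. Stretches of 60 bases before the start are shown for 6 of the genes to let the element be read. The last match before the start is in capitals (GGCAAC is the same element read on the other strand).
Dynlrb2: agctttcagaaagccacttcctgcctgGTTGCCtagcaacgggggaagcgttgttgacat
Ccdc153: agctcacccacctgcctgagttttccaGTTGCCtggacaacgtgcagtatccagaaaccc
Fam183b: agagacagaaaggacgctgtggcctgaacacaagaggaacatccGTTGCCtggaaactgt
Drc1: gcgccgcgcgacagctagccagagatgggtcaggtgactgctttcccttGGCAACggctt
Tekt1: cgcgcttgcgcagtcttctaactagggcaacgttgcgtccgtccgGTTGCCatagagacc
Dnaic2: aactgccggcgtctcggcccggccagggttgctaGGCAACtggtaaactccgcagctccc

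The match in capitals began 51 bases before the start in Dynlrb2, 152 in Ccdc153, 16 in Fam183b, 11 in Drc1, 15 in Tekt1 and 26 in Dnaic2. The Tekt1 stretch also holds an earlier match, left in lower case. In GRCm38.p6 the Dynlrb2 stretch is chr8:116504937-116504996 on the plus strand and the Tekt1 stretch chr11:72361883-72361942 on the minus strand. Drc1, a subunit of the regulator of ciliary dynein, had a level of 3.97 on the array, Tekt1, a tektin of the ciliary microtubules, 3.49, and Dnaic2, a dynein intermediate chain, 1.87.

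A TATA box was looked for as well. TATAAA, searched on the coding strand from 40 to 20 bases before the start, occurred in 3 of 17 club cell promoters (17.6%) and in 0 of 42 ciliated cell promoters, against 1.87% of all promoters and 1.98% of those of genes well above background. This share does not set club cells apart, since 5 of the other 36 lists had a larger one, up to 3 of 8 promoters (37.5%) of squamous genes, and 13 had none. The 3 club cell genes were Reg3g, Bpifa1 and Chad, whose last 60 bases before the start are shown with the match in capitals. In Reg3g the stretch is chr6:78468875-78468934 of GRCm38.p6, on the minus strand.
Reg3g: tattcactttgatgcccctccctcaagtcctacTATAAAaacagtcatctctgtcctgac
Bpifa1: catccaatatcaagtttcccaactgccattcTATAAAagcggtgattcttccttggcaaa
Chad: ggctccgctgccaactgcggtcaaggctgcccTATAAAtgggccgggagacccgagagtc

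The median ratio of observed to expected CpG was 0.21 in club cell promoters, 0.53 in ciliated cell promoters and 0.96 in those of the translation genes, against 0.64 in promoters of genes well above background and 0.38 in all promoters. The ciliated value thus lay below that of the genes measured. These are matches of letters in a fixed window and not sites shown to be bound.

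Basal cell genes gave a mixed picture. Of 18 genes, 17 were well above background and 7 (41.2%) lay in the top 10%, with a median level of 2.06. Krt15 led at 6.27 and rank 157, followed by Krt5 and by Aqp3, a water and glycerol channel, at 5.37. Pdpn, a membrane glycoprotein that alveolar type 1 cells carry too, stood at 4.36, Dapl1 at 3.52, and Itga6, the integrin of the basement membrane contact, at 3.40 by a probe with a shared run. Trp63, the master regulator of basal cells, stood at 2.06, but its 4 probes ranged down to -4.47. Krt14, which pairs with Krt5 in stratified epithelia, stood at -1.81, close to the median gene. Lgals7 was the lowest at -4.81, and the claudin gene Cldn1 was not well above background. On the other 3 arrays Krt15 ranged from 5.93 to 6.44 and Krt14 from -2.09 to -0.67.

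General epithelial genes were all measured, with 9 of 24 in the top 10% and none below the median gene. The keratins Krt18 (6.51), Krt8 (6.05) and Krt19 (5.91) and the claudin gene Cldn3 (5.38) were the highest. Epcam, the epithelial adhesion molecule, stood at 1.33 and Cdh1, E-cadherin, at 3.24. Among the lowest were Cldn4 (-1.58) and Ocln (-0.61).

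Genes of rare epithelial cells lay around the middle of the ranking, with a median level of -2.26 against -1.84 for all genes. Of 19 tuft, ionocyte and neuroendocrine genes, 1 was in the top 10% (5.26%, against 10.0% of all genes) and 11 lay below the median gene. The 1 was Atp6v1c2, a proton pump subunit, at 3.26. Lrmp stood at 0.85 and Alox5ap at 0.62. Chga, chromogranin of neuroendocrine cells, stood at 0.76, Foxi1, the ionocyte factor, at -1.76, and Cftr, the chloride channel, at -2.38. Pou2f3, the tuft cell factor, stood at -4.52 and Il25, the tuft cell cytokine, at -6.59. Chloride and sodium transport genes with higher signal were Ano1 (4.50) and Scnn1a (4.19), and Aqp5, a water channel of glands, airway and type 1 cells, had 6.03. The sodium channel subunits Scnn1b and Scnn1g stood at -0.95 and -4.86, the latter by a probe with a shared run.

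Genes of submucosal glands split likewise, with 4 of 13 in the top 10%. These were Lyz1, Dmbt1 (5.04), Lyz2 (4.93) and Tcn2 (4.40), which other cells also make. The gland secretions Bpifa2 (-7.26), Pip (-6.99) and Scgb1b27 (-6.60) were near the bottom of the ranking. Of squamous genes, Calml3 had the highest level, 3.72, and Sprr1b, Sprr2d, Ivl and Krtdap were not well above background.

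Alveolar type 2 genes ranged from -4.30 to 6.23. Of 19, all were well above background, 4 were in the top 10% and 7 lay below the median gene, with a median level of -0.11. Sftpd, a surfactant lectin that club cells also make, stood at 6.23 and rank 166, Lyz1 at 5.96, Sftpa1, another surfactant lectin, at 4.47, and Abca3, the lipid pump of lamellar bodies, at 4.20. Sftpb, a hydrophobic surfactant protein made by club and type 2 cells, stood at 2.56, with its other probe at -1.85. Slc34a2, the phosphate carrier of type 2 cells, stood at -4.30, Lpcat1, which makes surfactant lipid, at -3.97, and Cxcl15 at -2.98. Of 14 type 1 genes well above background, Aqp5, Gprc5a (4.88), Pdpn, Emp2 (3.42) and Krt7 (3.33) were in the top 10%, whereas Ager, the defining gene of type 1 cells in lung, stood at -4.84 with 69.2 intensity units. Rtkn2 and Cldn18 were not well above background.

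No endothelial gene of 22 lay in the top 10%, and 17 lay below the median gene. The list's median level was -3.04. The highest were Kdr, the receptor for vascular endothelial growth factor, at 1.52 with its other probe at -3.64, Ramp2 (0.34) and Vwf, von Willebrand factor (0.33). Cdh5, the cadherin of endothelial junctions, stood at -5.08, Emcn at -5.84 and Sox17 at -6.09, and Calcrl, Erg and Prox1 were not well above background. Smooth muscle and pericyte genes were as dim, with 0 of 16 in the top 10%, Myl9 the highest at 0.38 and Des the lowest at -7.05.

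Fibroblast and matrix genes held 3 of 25 in the top 10%, with a median level of -1.12. These were Gsn, gelsolin, which cuts actin filaments in many cell types (5.52), Dcn, decorin, a collagen-binding proteoglycan (4.59), and Sparc, a matrix protein (4.41, with probes down to -3.80). Mgp stood at 2.19 and Col1a2 at 1.53, while Pdgfra, the receptor that marks fibroblasts, stood at -4.32 and Tcf21 at -7.10. Dcn stood at 4.69, 4.22 and 4.33 on the other arrays. Msln, mesothelin, was the highest gene of the mesothelial list at 6.45 and rank 127, but Upk3b (-2.42), Wt1 (-2.56) and Lrrn4 (-3.37), which mark mesothelium, were dim, and Calb2 was not well above background.

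**Figure D3:**
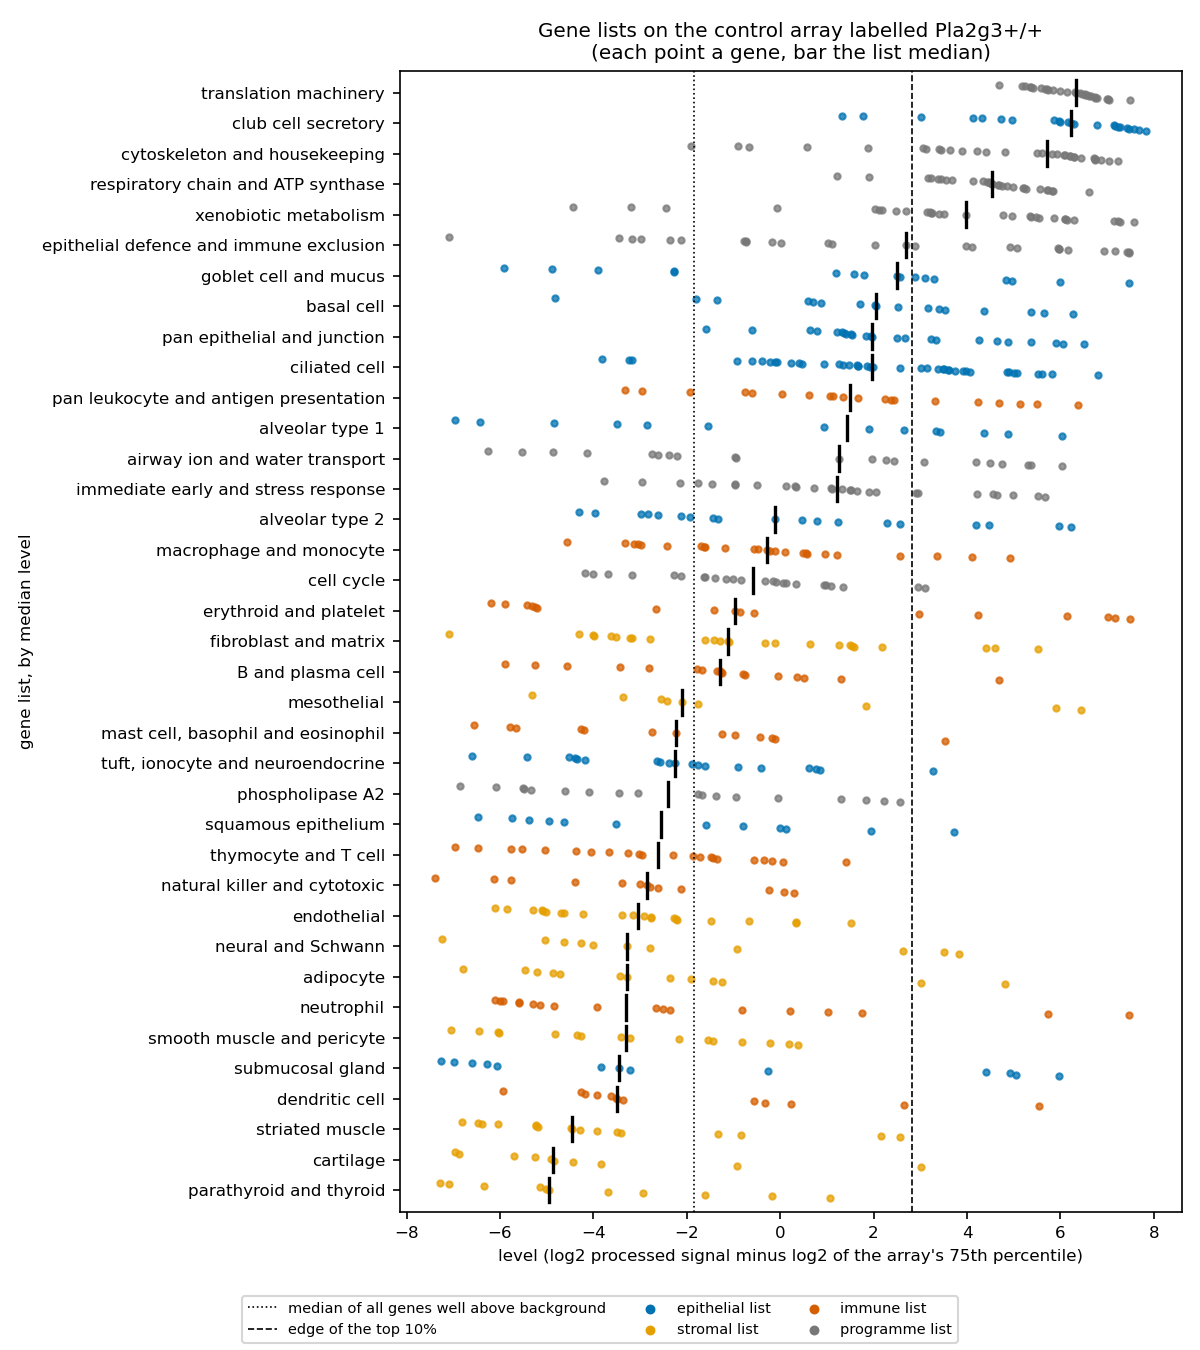
Each point is a gene well above background on the control array labelled Pla2g3+/+, by its log2 level relative to the array's 75th percentile; bars are list medians, the dotted line is the median of all genes (-1.84) and the dashed line the edge of the top 10% (2.83). Club cell genes (median 6.23) lie with the translation genes (6.34) at the top, and the striated muscle (-4.47), cartilage (-4.87) and parathyroid and thyroid (-4.94) lists have the lowest medians of the 37.

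Leukocyte genes were present at low to middle levels. Of 25 macrophage and monocyte genes, 3 were in the top 10% and the median level was -0.29. Those 3 were Lyz2 (4.93), Cd14, the lipopolysaccharide co-receptor (4.11), and Plet1 (3.36), each of which epithelial cells can make. Marco, a scavenger receptor of alveolar macrophages, stood at 1.22, Cd68 at 0.48, Adgre1, which encodes F4/80, at -1.69 and Siglecf, of alveolar macrophages and eosinophils, at -4.57. Csf1r stood at 2.57 by its brightest probe and at -2.59 by its dimmest.

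B cell genes lay around the middle. Of 18 B and plasma cell genes, 1 was in the top 10%, Vpreb3 at 4.69. Cd79b, the partner of Cd79a, stood at 1.31, Ms4a1, which encodes CD20, at 0.50 and Pax5, the B lineage factor, at -5.89. Cd79b stood at 0.28, -0.05 and 0.23 on the other 3 arrays, and Ms4a1 at -0.98, -1.06 and -0.81. The control array labelled Pla2g3+/+ was the highest of the 4 for both genes and for Cd79a, and its median of the list was -1.28 against -2.39 to -2.16. With 1 array per group, genes of a list are not replicates, and a difference between arrays was not tested. For Cd79a the file places the brighter probe on chromosome 12 and RefSeq the gene on chromosome 7, and its other probe stood at -4.48.

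Thymocyte and T cell genes were all measured, with 0 of 22 in the top 10% and a median level of -2.62. Cd4 had the highest, 1.41, with its other probe at -5.59, then Lck (0.07) and Cd3e (-0.16), while Rag2 (-6.95), Ptcra (-6.47) and Trat1 (-5.77) were the lowest. Natural killer genes held 0 of 13 in the top 10%. Of 18 neutrophil genes, Ltf and Csf3r (5.74) were in the top 10% and 12 lay below the median gene; Ltf is also made by airway epithelium, and the Csf3r probe holds a shared run and lies on another chromosome than the gene. The granule genes Mpo (-6.10), Mmp9 (-6.01) and Mmp8 (-5.93) were near the bottom, and S100a9, an abundant neutrophil protein, stood at 1.75. Of mast cell, basophil and eosinophil genes, Hdc, which makes histamine, stood at 3.54, Cpa3, a mast cell protease, at -0.10 and Prg2, the eosinophil major basic protein, at -6.55; Epx, Ms4a2 and Mcpt8 were not well above background. Siglech, which marks plasmacytoid dendritic cells, stood at 5.55 by a probe with a shared run and at -3.13 by the other.

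Antigen presentation genes led their list, but their range overlapped with that of its leukocyte genes. The class I genes H2-K1 (6.38), B2m (5.51) and H2-D1 (5.13) and the class II genes H2-Ab1 (4.68), H2-Eb1 (4.24) and Cd74 (3.32) were the 6 of 20 in the top 10%. Other antigen presentation genes were lower, with H2-Aa at 1.34, H2-DMa at -0.74 and Ciita, the class II regulator, at -3.32. Of the leukocyte genes, Cd52 stood at 2.44, Coro1a at 2.38 and Lcp1 at 2.25 by its brighter probe. Ptprc, which encodes the pan-leukocyte antigen CD45, stood at -1.94 and Cd53 at -2.97.

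Red cell genes were bright, and the erythroid and platelet list held 0.668% of the summed intensity. The globins Hba-a2 (7.49), Hba-a1 (7.17), Hbb-bt (7.03), Hbb-b2 (6.14) and Hbb-b1 (4.24) and Alas2, the heme synthesis enzyme of erythroid cells (2.96), were the 6 of 17 in the top 10%. The globin genes are near-identical pairs, so their signals cannot be assigned to 1 copy. The platelet genes Gp1ba (-6.19) and Gp9 (-5.90) were the lowest. The Hba-a1 probe stood at 7.32, 6.89 and 6.64 on the other arrays and the Hbb-bt probe at 6.96, 6.57 and 6.26. Both control arrays were thus above both challenged ones for these probes. The Hba-a2 probe did not show this order, at 7.56, 7.56 and 7.35 on the other arrays. Whether these probes read different gene copies was not tested.

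Other tissues near the bronchi were examined too. Of 11 parathyroid and thyroid genes, 0 were in the top 10%. Tg, thyroglobulin, stood at 1.07 and Pth, parathyroid hormone, at -0.18 with 1754 intensity units, while Casr, the calcium receptor of the parathyroid, stood at -6.35 and Slc5a5, the iodide carrier, at -7.29. Pth stood at -2.29, -5.30 and -3.75 on the other 3 arrays, so the control array labelled Pla2g3+/+ was the highest. Of muscle genes, the myosin gene Myh7 stood at 2.56 and Myh1, Myh2 and Myh4 were not well above background. Among cartilage genes only Chad, which the club cell list also holds, was in the top 10%, and Col2a1 stood at -6.97. Adipoq and Lep of fat cells were not well above background, while Acsl1 (4.82) and Gpd1 (3.02), enzymes used in other cells as well, were in the top 10%. The part that other tissues have in any level was not tested.

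General programmes filled much of the remaining top. All 29 translation genes lay in the top 10% (median 6.34), as did 28 of 30 genes of the respiratory chain and ATP synthase (4.54), led by Cox6a1 (6.62), and 27 of 32 housekeeping genes (5.72), led by Ppia (7.24) and Actb (7.05). Cell cycle genes held 2 of 24, Pcna (3.11) and Mcm6 (2.95), and Mki67, a marker of dividing cells, stood at 0.13. Of 28 immediate early and stress genes, 8 were in the top 10%, with Hspb1 (5.67), Mt1 (5.53) and Dnajb1 (4.98) the highest and Fos at 1.51. The other probe of Mt1 stood at -1.77.

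Phospholipase A2 genes, the family of Pla2g3, were of middle or low level, with 0 of 18 in the top 10% and a median of -2.40. The count was 1 by each gene's dimmest probe, and the median was then -4.80. Without the filter on dim probes the count was 1, and by the mean of a gene's probes, also without that filter, 2. In these last settings 28630 genes were ranked, so the top 10% was larger. Pnpla2, a triglyceride lipase of the wider family, had the highest level, 2.56, then Pla2g4b (2.22) and Pla2g4a, the cytosolic enzyme that frees arachidonic acid (1.84). The secreted enzymes were lower, with Pla2g12a at -0.94, Pla2g10 at -5.34, Pla2g1b at -5.51 and Pla2g5 at -6.09. Pla2g3 itself, at -3.05 and -5.49 by its 2 probes, is given no order among these enzymes.

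**Figure D4:**
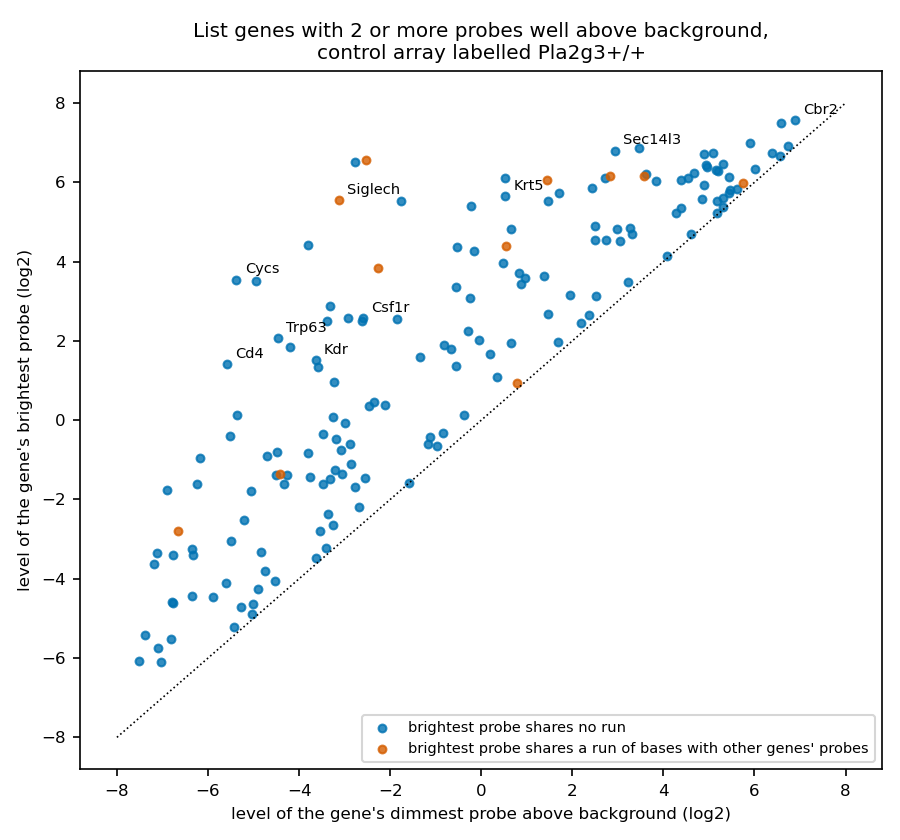
Brightest against dimmest probe well above background, as log2 levels relative to the 75th percentile, for list genes with at least 2 such probes on the control array labelled Pla2g3+/+; points on the dotted line would have equal probes. Cbr2 lies near the line (7.57 and 6.90), whereas Krt5 (5.65 and 0.52), Kdr (1.52 and -3.64), Cd4 (1.41 and -5.59) and Siglech (5.55 and -3.13) lie far above it.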

How the data were processed

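Spot intensity comes from the deposited scanner output of Agilent Feature Extraction 11.5.1.1 (version per the submitters' processing notes), with probe positions on mm9 per the file headers. RNA of 4 pooled samples was read on 1 array per group, labelled with Cy3 from 200 ng, per the labels' protocols. The deposited value table holds intensity as well, and equals the processed signal divided by each array's 75th percentile (column medians 0.0875, 0.0879, 0.0860 and 0.0850), so its scale is known.

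Of 43020 spots that are not controls, outliers were left out, spots of a probe were averaged, and log2 of the array's 75th percentile was subtracted. A gene took its brightest probe well above background (over at least 0.5 of its spots). Of 39429 probes, 36967 have a gene name and 28330 took it through a RefSeq accession. The 37 lists, their members and the rule for named genes were chosen with earlier results of these data known. That rule took Pla2g3, 6 markers, the 40 highest genes with a symbol, and of each list up to 6 highest, 3 lowest and defining dim members; other genes named were chosen after their values were seen. Ranking and the search for shared runs were tested on simulated data. Alternatives were normexp (limma 3.58.1, R 4.3.3, offset 50), quantile normalization, probe rules, dim and outlier filters and the value table. No test was possible, and the number of arrays limits the precision.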

Additional observations from a re-analysis of the deposited data

How the results depend on the processing

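The count of genes well above background, the counts in the top 10% of 10 lists and the number of epithelial genes among the brightest 100 were recomputed under 9 other settings, 1 of them (leaving out probes with a shared run) chosen after seeing the data. All 108 of these values stayed within 1.5 times the reported count. Quantile normalization and the deposited value table keep the order of spots within the array, so they could hardly move a count. Keeping the 135 outlier spots gave 23502 ranked genes against 23500. The agreement in these settings therefore carries little weight. Club cell genes ranged from 20 to 21, ciliated from 18 to 20, basal from 6 to 8 and alveolar type 2 from 4 to 5, while endothelial, thymocyte and T cell, and parathyroid and thyroid counts stayed at 0 in these settings. Epithelial genes among the brightest 100 ranged from 10 to 14, and genes ranked from 22214 to 28630, the latter without a filter on dim probes. Of 576 other list counts and medians, 29 moved. A count was called moved beyond 1.5 times the reported one, and a median only from a shift of 1.55 on the log2 scale. That is the median SD between probes of a gene, a wide limit. The basal median of 0.70 by the dimmest probe, against 2.06, was thus not called moved. The dimmest probe of each gene moved 10, and the mean of its probes, taken without the filter on dim probes, moved 8. The alveolar type 1 median went from 1.42 to -0.68 and -0.51 in these settings. It was -0.31 when only the filter was dropped, so the shift under the mean cannot be put down to averaging alone. The neutrophil and neural counts went from 2 to 1 each without shared-run probes. No paired analysis was possible because the groups compared hold 1 array each. Depth is not known for an array; genes not well above background have only a bound.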
